A study of Ovis aries with 15 samples.

Results

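Complex I genes were described in the ruminal epithelium (the layered lining of the largest forestomach) of male Hu lambs aged 6 months. The set took every gene whose name in the tables starts with NDUF, kept where it reached 1 FPKM (a fragment count corrected for library size and gene length) in at least 5 of 15 libraries. It held 45 of the 19304 genes listed, and all 45 were kept: 38 named as subunits and 7 named as assembly factors (NDUFAF1 to NDUFAF7). Total RNA was sequenced in 3 groups of 5 libraries, labelled CON, HG and HP, which share strain, sex, age and tissue. The series title names a high-grain diet given pelleted or not, but the labels do not spell out the 3 group names, so they are used here as written. The labels give no genotype, feed composition or duration, and do not state that each library is a different lamb, so p-values measure the spread between these libraries.

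Complex I is the entry point of the mitochondrial respiratory chain: it oxidises NADH, passes electrons through a flavin and a row of iron-sulfur clusters to ubiquinone, and pumps protons across the inner membrane. Its NADH-oxidising (N) module and ubiquinone-reducing (Q) module form the arm in the matrix, and a proximal and a distal part form the arm in the membrane. Core subunits do the catalysis, accessory subunits surround them, and assembly factors help to build the complex without staying in it. Roles of single genes given here were described mainly in human, mouse and bovine cells. In the rumen, the epithelium takes up and oxidises short-chain fatty acids from microbial fermentation, which feeds this chain. The subunits that mitochondrial DNA encodes were not analysed here.

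The files hold FPKM without read counts, so the sequencing depth of each library is unknown. All 8 epithelial markers looked up were above 0 in every library, with a summed level of 2638 to 4115 FPKM in CON, 2970.2 to 4307 in HG and 2059.8 to 4574 in HP. The basal keratin gene KRT5 stayed at or above 656 FPKM. Libraries CON1 and CON3 stood apart: the library factor by median ratios (the median over genes of the ratio to the geometric mean of all libraries) was 0.849 and 0.687 there, against 0.965 to 1.12 in the other 13. Most counts and medians over gene sets are therefore given with and without both, and so are the fold changes of most genes set out in full. The summed level of 6 smooth muscle markers was 5122 FPKM in HG2, 3132 in HG3, 2966 in HP5, 1565 in CON1, 712 in CON5 and 572 in HG1, and 123 to 228 in the others.

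Most subunit genes were abundant and the 7 NDUFAF assembly factors were not. On the FPKM scale, which is per transcript length, the median over subunits of the mean level of 15 libraries was 107 FPKM, with 19 of 38 at 100 FPKM or more. The median over the 7 NDUFAF genes was 6.71 FPKM, close to the 6.70 FPKM of all genes tested, and none reached 100 FPKM. NDUFAF3, at a mean of 23.3 FPKM, lay above the subunit genes NDUFA5 (18.15), NDUFC1 (5.56) and NDUFA4L2 (3.43). NDUFAF8, listed under an older name and given last, had a higher mean than each of these 7. The highest mean belonged to NDUFB7, an accessory subunit of the distal membrane arm, at 289 FPKM. Its levels were 406, 233, 437, 257 and 333 FPKM in CON1 to CON5, 290.1, 283, 289.6, 253 and 313 in HG1 to HG5, and 389, 161, 234, 208 and 255 in HP1 to HP5. CON3 and CON1 held the highest values and HP2 the lowest, and the groups overlapped.

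NDUFS5, an accessory subunit on the intermembrane side of the proximal arm, came next. It stood at 498, 196, 589, 282 and 339 FPKM in CON1 to CON5, 189.8, 176, 196, 253 and 283 in HG1 to HG5, and 306, 243, 207, 251 and 215 in HP1 to HP5. CON3 and CON1 were far above the other 13 libraries, and CON2 lay within the HG range. At the other end, NDUFAF2, which helps to attach the N module, was the lowest member, at 2.43, 4.34, 5.07, 3.71 and 4.26 FPKM in CON1 to CON5, 3.09, 3.32, 2.49, 1.96 and 2.89 in HG1 to HG5, and 2.87, 3.04, 1.81, 2.91 and 2.13 in HP1 to HP5. CON2 to CON5 were above every HG and HP library, while CON1 lay among them. NDUFA4L2, a paralogue of NDUFA4 known in human cells as a gene induced by low oxygen, was the lowest gene in the subunit group, at 3.31, 2.29, 3.15, 2.40 and 2.72 FPKM in CON1 to CON5, 2.65, 4.91, 2.75, 4.12 and 2.95 in HG1 to HG5, and 6.01, 4.15, 4.18, 2.94 and 2.95 in HP1 to HP5. Its highest values were in HP1 and HG2, and the groups overlapped. NDUFA4L2 overlaps 4 other genes in the RefSeq annotation, so reads of neighbours may be counted with it.

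**Figure D1:**
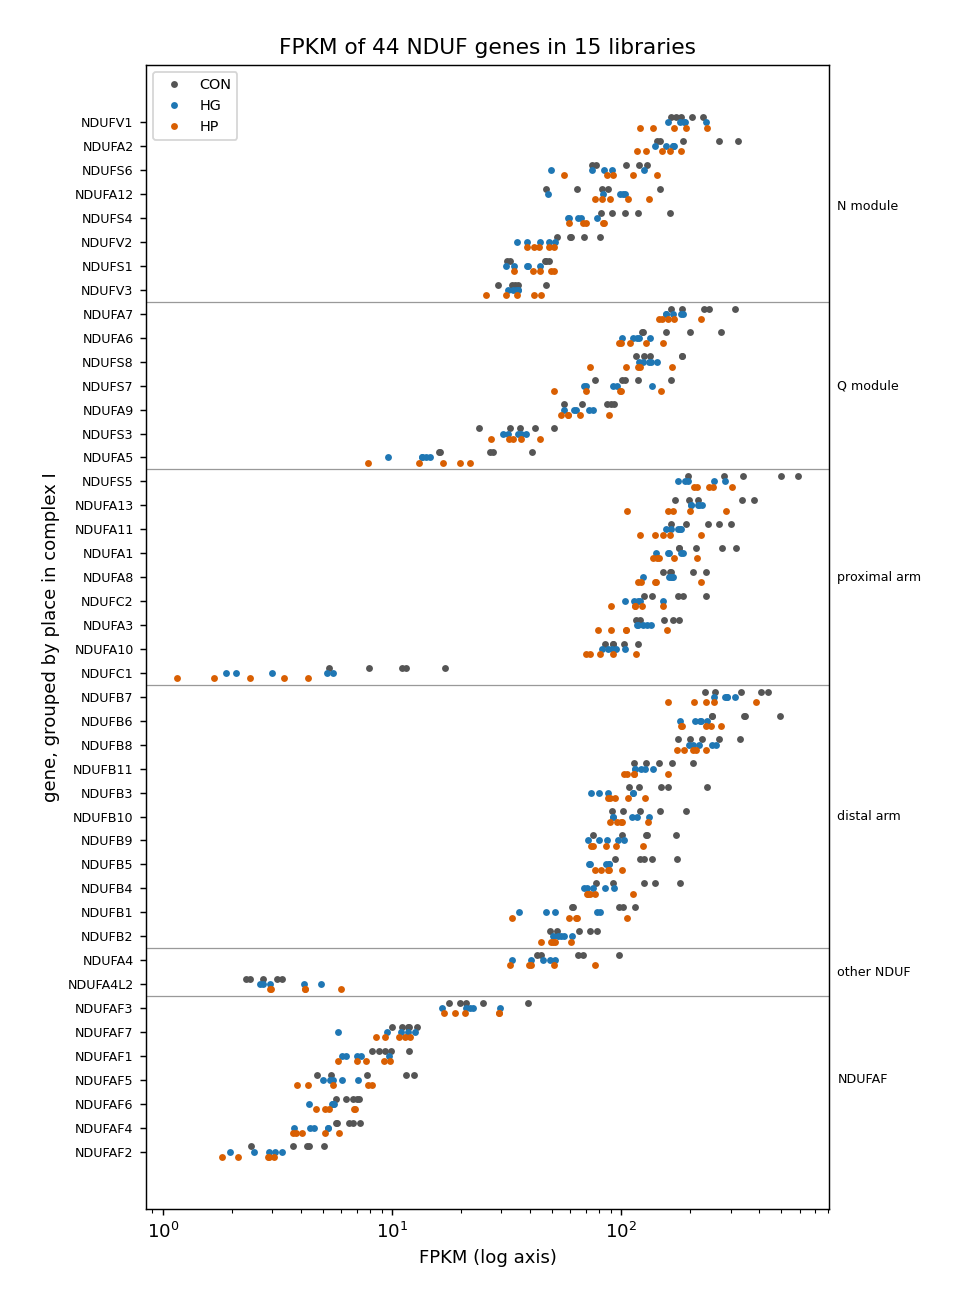
FPKM (log axis) of 44 of the 45 genes, grouped by place in complex I, with 1 point per library in CON, HG and HP. Most subunits lie near 100 FPKM, while NDUFA5, NDUFC1, NDUFA4L2 and the 7 NDUFAF genes lie lower.

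Most members were highest in the same pair of libraries, CON3 and CON1. The summed FPKM of the 45 genes was 6559, 4246, 7491, 4542 and 5422 in CON1 to CON5, 4267, 4110.0, 4261, 4262 and 4756 in HG1 to HG5, and 5627, 3641, 4004, 3943 and 4008 in HP1 to HP5. CON2 and CON4 lay inside the HG range, and HP1 lay above CON5, CON4 and CON2. The highest of the 15 values was in CON3 for 30 members and in CON1 for 8. The lowest was in HP2 for 17, and within HP the highest value was in HP1 for 36. The shares of all genes with their highest or lowest value in these libraries were not set beside these counts.

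The same libraries were high for 10 cytosolic ribosomal protein genes, but not for genes at large. Over all genes tested, the median deviation of log2(FPKM + 1) from the mean of 15 libraries was -0.19 in CON1 and -0.39 in CON3. The sum of 10 cytosolic ribosomal protein genes was 21225 FPKM in CON1 and 23814 in CON3, against 10729 to 17673 in the other 13, and the highest of those was HP1. The NDUF sum was 26.6% to 37.3% of that ribosomal sum over all libraries. The part of this shared level in the group differences below was not tested. The assembly factors followed the subunits less closely in CON1 and HP1: the median deviation of log2(FPKM + 1) from the mean of 15 libraries was 0.43 for subunits and 0.13 for NDUFAF genes in CON1, and 0.31 against -0.05 in HP1. This difference is given as a description.

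**Figure D2:**
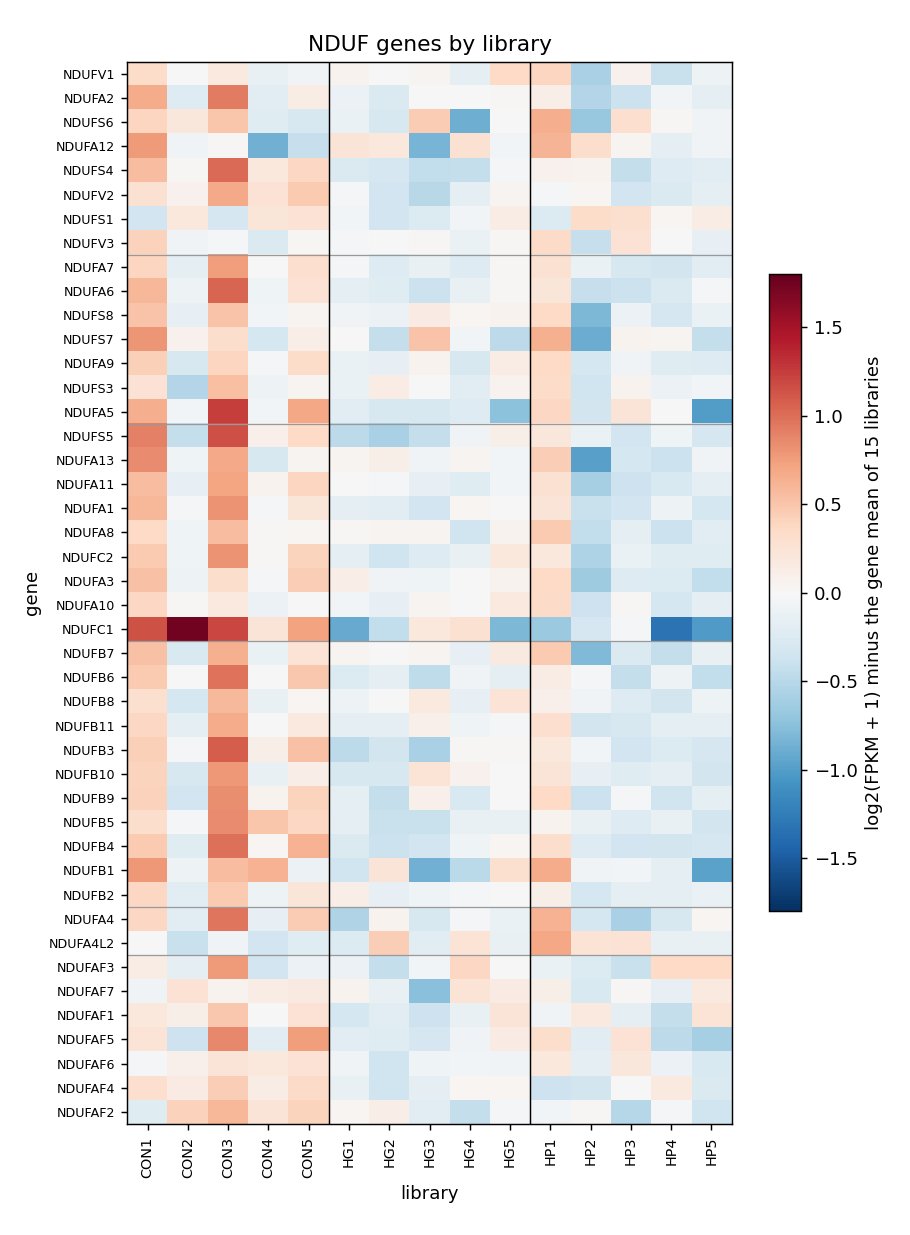
Log2(FPKM + 1) of 44 of the 45 genes in each library minus the gene's mean over 15 libraries, with genes grouped by place in complex I from the N module (top) to the NDUFAF factors (bottom). CON3 and CON1 are high for most subunits and HP2 is low, while NDUFC1 is high in CON2 as well.

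**Figure D3:**
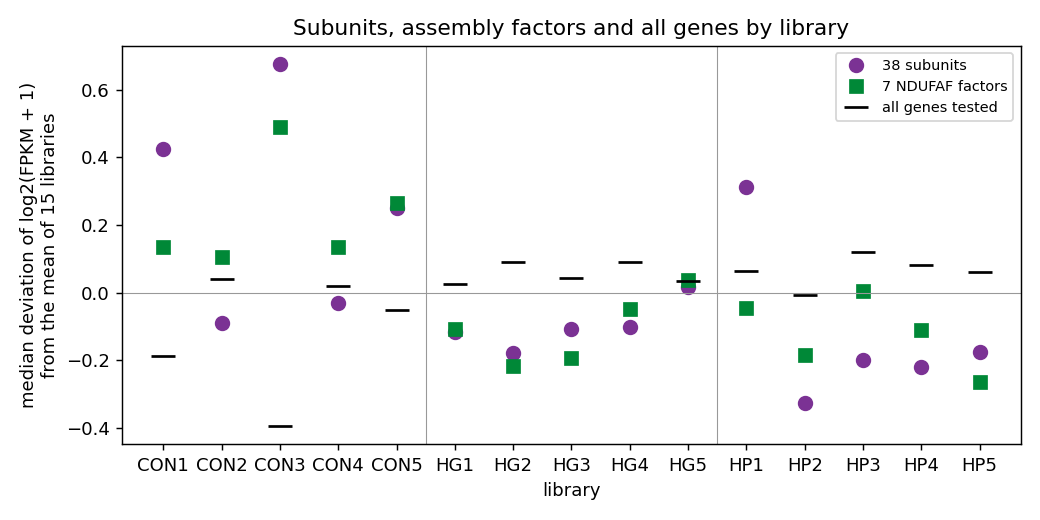
Median deviation of log2(FPKM + 1) from the mean of 15 libraries, by library, over 38 subunits (circles), 7 NDUFAF factors (squares) and all genes tested (dashes). In CON1 the subunits stand at 0.43 and the factors at 0.13, and in CON3 all genes stand at -0.39 while the subunits stand at 0.68.

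HG and HP were each compared with CON, and with each other, in 1 limma model over 13084 genes. Nearly all complex I genes had lower mean log2 levels in HG and in HP than in CON, but none passed the test: 0 of 45 members had an adjusted p under 0.05 in either comparison. The background was 0.0% of all genes called in HG against CON, and in HP against CON 0.00764% called lower and 0.00764% higher. An adjusted p above 0.05 does not show that levels were equal. The log2 fold change of FPKM + 1 was negative for 43 members in HG against CON, beside 30.8% of all genes tested, and for 42 in HP against CON, beside 31.0%. Both comparisons use the same 5 CON libraries. Without CON1 and CON3, the fold change was negative for 32 members in HG, beside 5335 of 13084 genes, and for 38 in HP, beside 5239. With all libraries, 19 members (42.2%) were lower in HG at an unadjusted limma p under 0.05, beside 5.50% of all genes, and 0 were higher, beside 21.8%. In HP, 20 members (44.4%) were lower, beside 5.24% of all genes, and 1 was higher, beside 22.6%.

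The median log2 fold change over subunits was -0.31 in HG against CON and -0.40 in HP against CON. Fold changes of single genes are given ± SE below. Over the 7 NDUFAF genes the median was -0.37 and -0.26, and over all genes tested 0.17 and 0.18. Relative to the median gene and with all libraries, 44 members were lower in HG and 43 in HP, where by construction 50.0% of all genes are. Without CON1 and CON3, the medians over subunits were -0.13 and -0.15, over NDUFAF genes -0.28 and -0.21, and over all genes 0.06 and 0.06. Median-ratio scaling put the medians over subunits at -0.54 and -0.64, and quantile normalization put them at -0.18 and -0.22. With median-ratio scaling, 26 members in HG (beside 12.8% of all genes) and 35 in HP (beside 13.7%) were lower at an unadjusted p under 0.05, and 0 were higher, beside 12.3% and 11.9%. With quantile normalization 18 and 19 were lower, beside 12.0% and 10.2%. Without CON1 and CON3, 10 members in HG (beside 3.97% of all genes) and 7 in HP (beside 2.90%) were lower at an unadjusted p under 0.05, and 0 and 2 (NDUFA12 and NDUFA4L2) were higher, beside 7.79% and 6.36%. Of the 19 and 20 members above, 8 and 7 were among them. In a bulk sample, fewer cells of a type and less RNA per cell cannot be told apart.

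Leaving out CON2 changed the calls. Without that library, 14 members were called lower in HG, beside 2.93% of all genes called lower and 13.9% called higher, and 16 were called lower in HP, beside 2.53% called lower and 14% called higher. No member was called higher. CON2 had the lowest NDUF sum of CON, while CON1 and CON3 had the highest. With both CON1 and CON3 left out, 0 members were called in either comparison, beside 0 of all genes tested. The smallest limma adjusted p among members was then 0.312 in HG and 0.51 in HP. Leaving out any one of the other 14 libraries gave 0 calls among members, and weighting libraries by their quality gave 7 lower in HG, beside 1.62% of all genes called lower and 5.01% called higher, and 0 in HP, beside 0.0%.

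**Figure D4:**
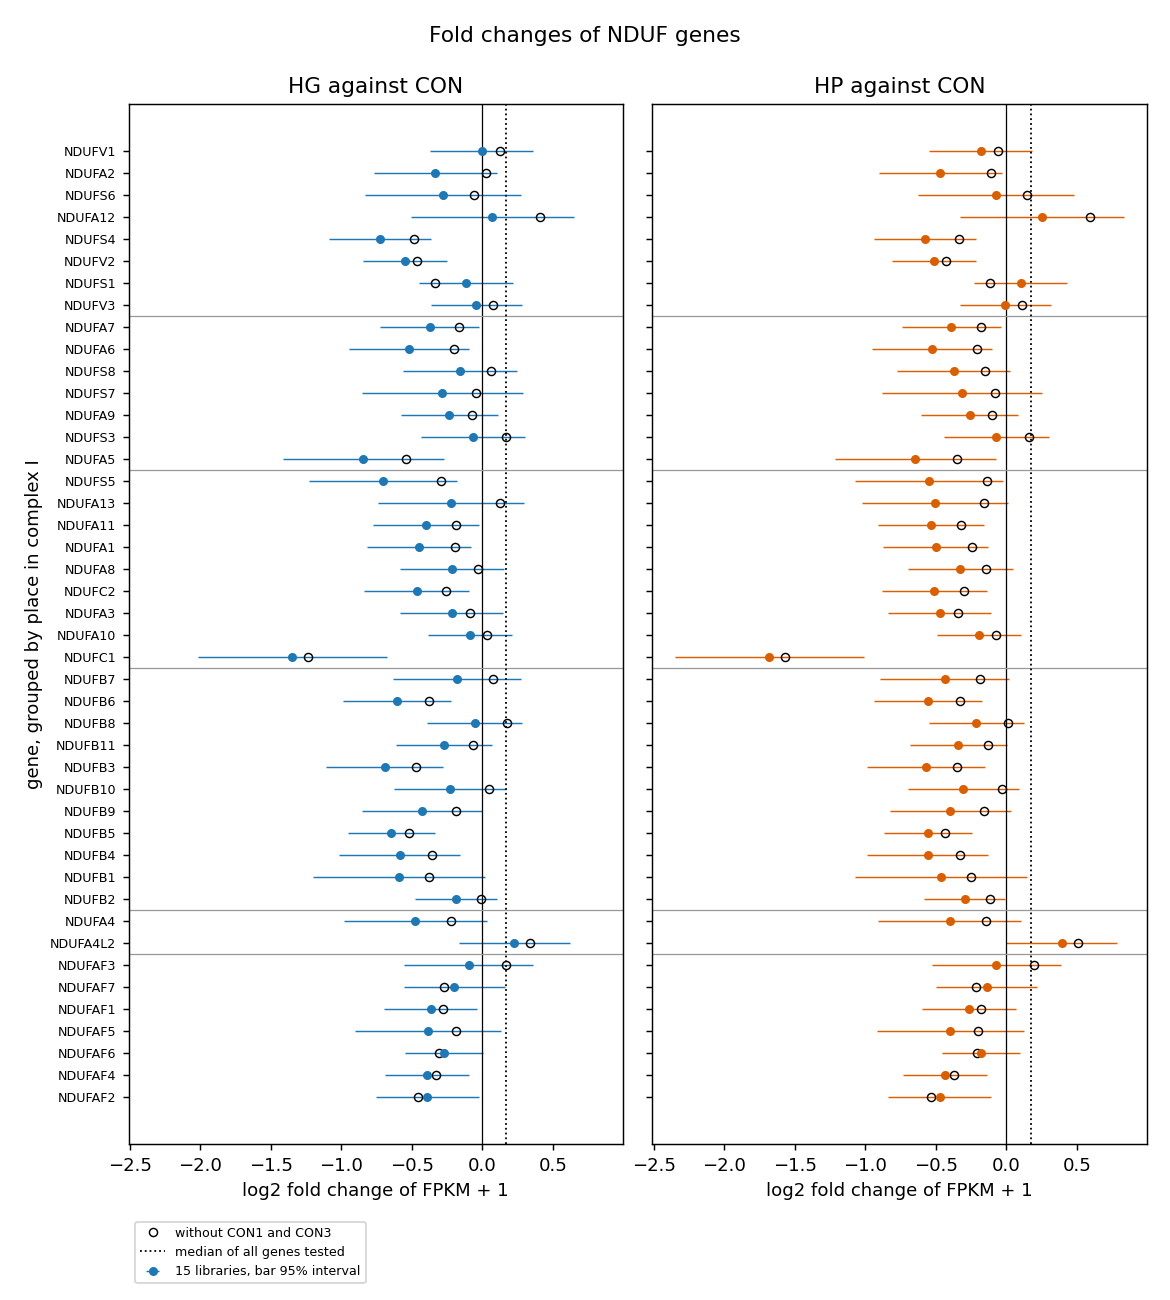
Log2 fold change of FPKM + 1 of 44 of the 45 genes in HG and in HP against CON (filled points, with 95% intervals from limma) and without CON1 and CON3 (open points). Most filled points lie left of 0 and of the dotted median of all genes tested (0.17 and 0.18), NDUFC1 lies lowest, and open points mostly lie closer to 0.

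In the N module, 2 of 8 subunits in HG and 3 of 8 in HP were lower at an unadjusted p under 0.05, and the module's median log2 fold change was -0.20 and -0.13. With CON1 and CON3 left out, 3 in HG and 2 in HP were lower and 0 and 1 (NDUFA12) higher, the medians were -0.02 and -0.08, and 4 and 5 of 8 fold changes were negative. NDUFS4, an accessory subunit whose loss destabilises the N module in mouse and human, was at 119, 81.3, 163, 91.0 and 104 FPKM in CON1 to CON5, 66.9, 64.5, 58.8, 59.3 and 78.6 in HG1 to HG5, and 84.5, 83.7, 59.0, 68.2 and 69.9 in HP1 to HP5. All 5 HG libraries and 3 HP libraries lay below the lowest CON library. The log2 fold change of FPKM + 1 was -0.72 ± 0.17 (SE) in HG against CON and -0.57 ± 0.17 in HP against CON, with limma adjusted p of 0.0779 and 0.0991, and without CON1 and CON3 it was -0.48 and -0.34. NDUFS4 overlaps a pseudogene and a long non-coding RNA in the RefSeq annotation. NDUFV2, a core subunit that carries an iron-sulfur cluster, was at 60.3, 52.6, 80.4, 59.6 and 69.0 FPKM in CON1 to CON5, 48.6, 38.8, 35.0, 44.1 and 51.6 in HG1 to HG5, and 48.3, 50.9, 38.7, 41.4 and 43.8 in HP1 to HP5. Every HG and every HP library lay below the lowest CON library. Its log2 fold change was -0.55 ± 0.14 (SE) in HG against CON and -0.51 ± 0.14 in HP against CON, with limma adjusted p of 0.0779 and 0.0991, and without CON1 and CON3 it was -0.47 and -0.43. Without CON2, the adjusted p was 0.0158 and 0.0254 for NDUFS4 and 0.0195 and 0.0252 for NDUFV2. With CON1 and CON3 left out instead, the limma adjusted p was 0.344 and 0.524 for NDUFS4 and 0.351 and 0.51 for NDUFV2.

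The other core subunits of the N module were not below CON in every HG or HP library. NDUFV1, which binds FMN and NADH, was at 228, 182, 204, 166 and 173 FPKM in CON1 to CON5, 189.99, 180.2, 187, 159.6 and 234 in HG1 to HG5, and 238, 120.5, 192, 137 and 170.2 in HP1 to HP5. The groups overlapped, with HP2 lowest and HP1 highest, and the log2 fold change was -0.00 ± 0.17 in HG (limma 95% interval -0.37 to 0.36) and -0.18 ± 0.17 in HP (-0.55 to 0.18). NDUFS1, the largest nuclear-encoded subunit and carrier of several iron-sulfur clusters, was at 31.8, 46.5, 32.6, 47.1 and 48.4 FPKM in CON1 to CON5, 38.9, 31.5, 34.1, 39.1 and 44.4 in HG1 to HG5, and 34.1, 51.0, 49.5, 41.4 and 44.3 in HP1 to HP5. It was low in CON1 and CON3, where most members were high, and its log2 fold change was -0.12 ± 0.16 in HG and 0.10 ± 0.16 in HP. Without CON1 and CON3 these were -0.33 and -0.11. NDUFA12, an accessory subunit related to NDUFAF2, had positive fold changes, 0.07 ± 0.27 and 0.26 ± 0.27, and 0.41 and 0.59 without CON1 and CON3. In HG its sign turned to -0.16 under median-ratio scaling.

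In the Q module, 4 of 8 subunits in each comparison were lower at an unadjusted p under 0.05, with medians of -0.32 in HG and -0.36 in HP. The count was 1 of 8 in each without CON1 and CON3, with medians of -0.12 and -0.16. NDUFA5, an accessory subunit of the matrix arm, was at 26.9, 16.1, 40.8, 16.2 and 27.7 FPKM in CON1 to CON5, 14.6, 13.6, 13.5, 14.1 and 9.61 in HG1 to HG5, and 21.9, 13.1, 19.8, 16.7 and 7.84 in HP1 to HP5. All HG libraries were below CON, and HP overlapped CON. Its log2 fold change was -0.84 ± 0.27 (SE) in HG against CON and -0.64 ± 0.27 in HP against CON, with limma adjusted p of 0.0873 and 0.144, and without CON1 and CON3 it was -0.54 and -0.34. Without CON2, its adjusted p in HG was 0.0298, while leaving out CON1 and CON3 instead gave a limma adjusted p of 0.453.

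The core subunits NDUFS3, NDUFS7 and NDUFS8 of the Q module were not called either. NDUFS3, a subunit of the matrix arm without a cluster, was at 42.1, 24.0, 51.1, 32.6 and 36.3 FPKM in CON1 to CON5, 32.0, 38.4, 35.3, 30.6 and 36.5 in HG1 to HG5, and 44.1, 27.1, 36.6, 32.3 and 33.7 in HP1 to HP5. Groups overlapped, with the lowest value in CON2 and the highest in CON3. NDUFS7, which carries the last cluster before ubiquinone, was at 166, 101, 119, 76.6 and 104 FPKM in CON1 to CON5, 96.0, 70.5, 137, 92.2 and 68.5 in HG1 to HG5, and 149, 50.9, 99.9, 98.4 and 70.5 in HP1 to HP5. It varied widely within each group. NDUFS8, which carries a pair of clusters, was at 184, 117, 185, 125 and 134 FPKM in CON1 to CON5, 124, 119.8, 144, 133 and 135 in HG1 to HG5, and 166, 73.0, 120.3, 105 and 119 in HP1 to HP5. CON1 and CON3 were highest and HP2 lowest. Log2 fold changes in HG and HP were -0.07 ± 0.18 and -0.07 ± 0.18 for NDUFS3, -0.28 ± 0.27 and -0.31 ± 0.27 for NDUFS7, and -0.16 ± 0.19 and -0.37 ± 0.19 for NDUFS8. Over all 7 nuclear-encoded core subunits the median was -0.16 and -0.31. Over 29 accessory subunits it was -0.37 and -0.47, with 14 and 16 lower at an unadjusted p under 0.05. When CON1 and CON3 were left out, the medians were -0.05 and -0.11 over core subunits and -0.16 and -0.18 over accessory subunits, of which 5 and 3 were lower and 0 and 1 higher. The difference between core and accessory subunits was not tested.

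In the proximal membrane arm, 5 of 9 subunits in HG and 6 of 9 in HP were lower at an unadjusted p under 0.05, with medians of -0.40 and -0.50. Leaving out CON1 and CON3 gave 1 of 9 in each, with medians of -0.19 and -0.24. NDUFC1, a small accessory subunit, had the largest fold change of any member. It stood at 11.02, 17, 11.5, 5.33 and 7.93 FPKM in CON1 to CON5, 1.89, 2.99, 5.18, 5.53 and 2.08 in HG1 to HG5, and 2.40, 3.38, 4.31, 1.16 and 1.67 in HP1 to HP5. CON2 was highest, all HP libraries and 4 HG libraries lay below CON4, the lowest CON library, and HG4 lay above it. The log2 fold change of FPKM + 1 was -1.35 ± 0.32 (SE) in HG against CON and -1.68 ± 0.32 in HP against CON, with limma adjusted p of 0.0779 and 0.0991, and without CON1 and CON3 it was -1.23 and -1.56. As a linear ratio of FPKM + 1, this was 0.393 and 0.312. NDUFC1 made up 0.117% to 0.400% of the NDUF sum in CON, 0.044% to 0.130% in HG and 0.029% to 0.108% in HP. Without CON2, its adjusted p was 0.0268 and 0.021, while leaving out CON1 and CON3 instead gave limma adjusted p of 0.351 and 0.51.

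NDUFC2, an accessory subunit next to NDUFC1 in the membrane, had means of 172 ± 43.3, 122 ± 18.1 and 119 ± 22.1 FPKM in the 3 groups, CON first (SD over 5 libraries, as for all means given here) and log2 fold changes of -0.47 ± 0.18 and -0.51 ± 0.18. NDUFA11, an accessory subunit at the join of the membrane arm, was at 268, 164.3, 301, 191 and 239 FPKM in CON1 to CON5, 183, 179.8, 165, 157 and 177 in HG1 to HG5, and 222, 120.5, 141, 152 and 164.1 in HP1 to HP5. HP2 to HP5 and HG4 lay below CON2, the lowest CON library, and HP1 lay within the CON range. Its log2 fold change was -0.40 ± 0.18 (SE) in HG against CON and -0.54 ± 0.18 in HP against CON, with limma adjusted p of 0.162 and 0.102, and without CON1 and CON3 it was -0.19 and -0.32. Without CON2, the adjusted p was 0.04997 and 0.0276, while leaving out CON1 and CON3 instead gave limma adjusted p of 0.687 and 0.59. Small NDUF genes have processed pseudogenes in mammalian genomes, so reads of near copies may be shared and their levels are uncertain.

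In the distal membrane arm, 12 genes were tested, 11 NDUFB members and NDUFAB1, which is listed in the tables by gene number and is no member. Of these 12, 6 in HG and 5 in HP were lower at an unadjusted p under 0.05, with medians of -0.49 and -0.45. Those counts were 3 and 1 without CON1 and CON3, and the medians -0.22 and -0.18. NDUFB5, an accessory subunit, was at 121, 93.8, 175, 136 and 126 FPKM in CON1 to CON5, 86.0, 73.2, 72.6, 88.3 and 88.1 in HG1 to HG5, and 101, 88.2, 81.7, 87.7 and 76.6 in HP1 to HP5. Every HG library was below CON2, the lowest CON library, and HP1 alone of HP lay above it. The log2 fold change of FPKM + 1 was -0.64 ± 0.15 (SE) in HG against CON and -0.55 ± 0.15 in HP against CON, with limma adjusted p of 0.0779 and 0.0991, and without CON1 and CON3 it was -0.52 and -0.43. NDUFB3 and NDUFB6, accessory subunits of the same arm, varied more within CON. NDUFB3 was at 149.9, 108, 237, 119 and 160.4 FPKM in CON1 to CON5, 80.1, 87.7, 73.5, 112 and 112 in HG1 to HG5, and 127, 107, 87.4, 93.8 and 89.7 in HP1 to HP5, and HG4, HG5 and HP1 overlapped CON. NDUFB6 was at 344, 249, 493, 249 and 348 FPKM in CON1 to CON5, 210.1, 222, 181, 237 and 222 in HG1 to HG5, and 274, 246, 185, 234 and 183 in HP1 to HP5, and all HG libraries lay below CON while HP1 did not.

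For NDUFB3, the log2 fold change was -0.69 ± 0.20 in HG (limma adjusted p = 0.0779) and -0.57 ± 0.20 in HP (limma adjusted p = 0.108). For NDUFB6 it was -0.61 ± 0.18 (limma adjusted p = 0.0809) and -0.55 ± 0.18 (limma adjusted p = 0.102). Without CON1 and CON3 the fold changes were -0.47 and -0.35 for NDUFB3 and -0.38 and -0.33 for NDUFB6. CON3 held the highest value of NDUFB3, NDUFB5 and NDUFB6. Without CON2, adjusted p in HG and HP was 0.0134 and 0.0204 for NDUFB5, 0.0206 and 0.0343 for NDUFB3, and 0.0247 and 0.0329 for NDUFB6. Leaving out CON1 and CON3 instead gave limma adjusted p of 0.312 and 0.51, 0.387 and 0.58, and 0.412 and 0.5645. NDUFB8, in contrast, had mean levels of 239.6 ± 60.2, 226 ± 26.8 and 203 ± 22.9 FPKM in CON, HG and HP, with limma 95% intervals of the log2 fold change of -0.39 to 0.28 and -0.55 to 0.12.

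**Figure D5:**
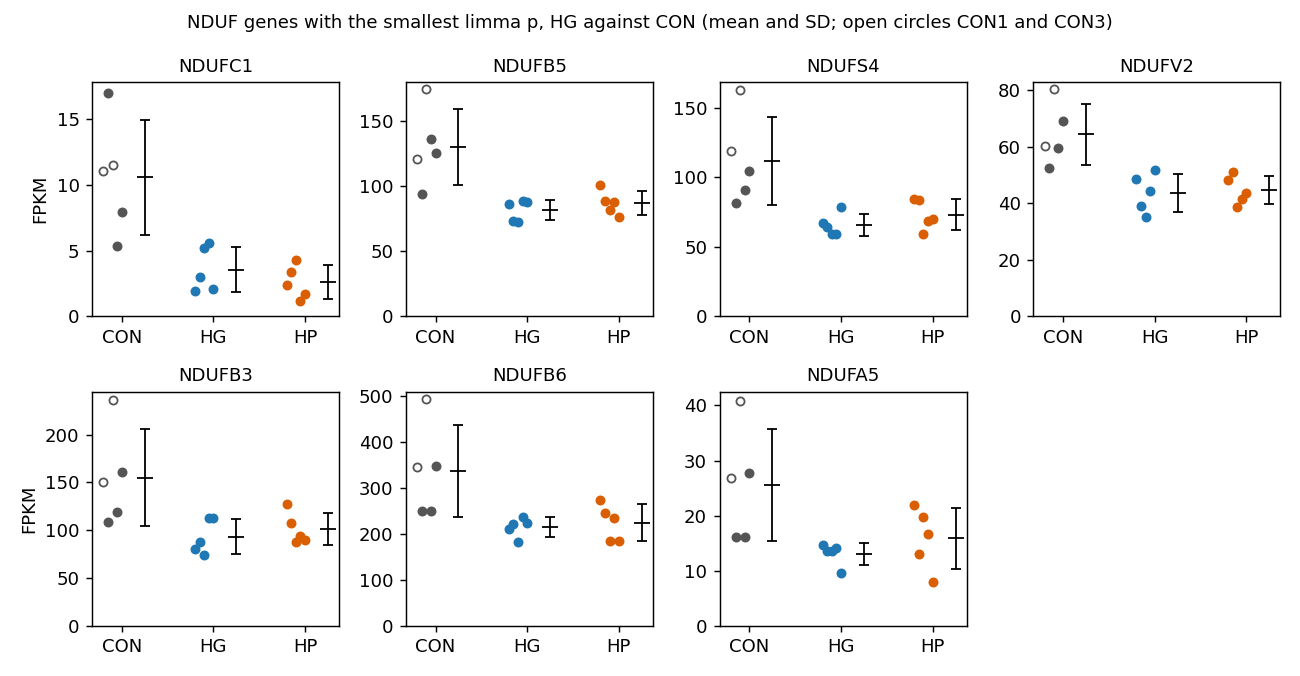
FPKM by library of 7 of the 8 genes with the smallest limma p in HG against CON, with the mean and SD of 5 libraries per group beside the points. Open circles are CON1 and CON3, and for NDUFV2 every HG and HP point lies below the lowest CON point of 52.6 FPKM.

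With CON1 and CON3 included, 7 members had HG libraries that all lay below CON (NDUFB6, NDUFB5, NDUFS4, NDUFV2, NDUFA5, NDUFAF6 and NDUFAF4), beside 1.13% of all genes tested. In HP, 3 did, NDUFV2 and NDUFC1 among them, beside 0.825%. NDUFA4, now placed in cytochrome c oxidase rather than complex I, had means of 63.7 ± 22.2, 43.9 ± 7.17 and 48.0 ± 17.2 FPKM in CON, HG and HP. Its log2 fold changes were -0.48 ± 0.24 and -0.40 ± 0.24. The 1 member higher at an unadjusted p under 0.05 was NDUFA4L2 in HP, with a log2 fold change of 0.39 ± 0.18 and a limma adjusted p of 0.179. It was 0.51 without CON1 and CON3.

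The assembly factors had negative fold changes in both comparisons with all libraries, and 3 of 7 in HG and 2 of 7 in HP were lower at an unadjusted p under 0.05. In each, 2 of 7 were lower without CON1 and CON3. NDUFAF4, which acts on the early matrix-arm intermediate, was at 6.52, 5.73, 7.26, 5.67 and 6.75 FPKM in CON1 to CON5, 4.57, 3.72, 4.40, 5.23 and 5.24 in HG1 to HG5, and 3.71, 3.81, 5.10, 5.85 and 4.07 in HP1 to HP5. All HG libraries and 4 HP libraries lay below the lowest CON library, and HP4 lay above it. Fold changes on the log2 scale were -0.39 ± 0.14 (SE) in HG against CON and -0.43 ± 0.14 in HP against CON, with limma adjusted p of 0.104 and 0.101, and without CON1 and CON3 they were -0.33 and -0.37. Without CON2, NDUFAF4 was called in HP (adjusted p = 0.0472), while leaving out CON1 and CON3 instead gave a limma adjusted p of 0.51.

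NDUFAF2, whose levels are given above, had a log2 fold change of -0.39 ± 0.17 in HG (limma adjusted p = 0.161) and -0.47 ± 0.17 in HP (limma adjusted p = 0.115). Unlike most subunits it lay further from 0 without CON1 and CON3, at -0.45 and -0.54, and CON1 was its lowest CON library. NDUFAF1, an early membrane-arm factor, had means of 9.61 ± 1.38, 7.27 ± 1.44 and 7.92 ± 1.62 FPKM in CON, HG and HP. NDUFAF6 had 6.59 ± 0.623, 5.28 ± 0.535 and 5.76 ± 1.02 FPKM. NDUFAF5, which modifies NDUFS7, had 8.37 ± 3.497, 5.81 ± 0.835 and 5.95 ± 2.0 FPKM. NDUFAF7, a methyltransferase, had 11.5 ± 1.03, 10.1 ± 2.66 and 10.4 ± 1.43 FPKM, and it overlaps PRKD3 in the RefSeq annotation. NDUFAF3, a partner of NDUFAF4, had the fold changes nearest to 0 of the 7, -0.10 ± 0.22 and -0.07 ± 0.22 on the log2 scale, which were 0.17 and 0.19 without CON1 and CON3. Its sign also turned in both comparisons without CON3 alone (0.080 and 0.11) and with array quality weights (0.082 and 0.14), and in HP without HP3 (0.028).

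No member was called in HP against HG, which does not show that levels were equal. Of all genes tested 0.0% were called, and 0 members reached an unadjusted p under 0.05, beside 1.02% of all genes lower and 1.09% higher in HP. The median log2 fold change was -0.01 over subunits, 0.03 over NDUFAF genes and 0.01 over all genes. The members with the smallest p were NDUFA3, NDUFS1, NDUFB7 and NDUFA13, at limma adjusted p of 0.999 each. NDUFA3, an accessory subunit of the proximal arm that overlaps TFPT in the RefSeq annotation, was at 179, 116, 154, 120.3 and 168 FPKM in CON1 to CON5, 134, 119, 118, 124 and 129.9 in HG1 to HG5, and 158, 79.3, 105, 105 and 90.6 in HP1 to HP5. HP1 was the only HP library above the HG range, and the other 4 lay below it. NDUFA13, an accessory subunit also known as GRIM-19, was at 380.2, 198, 337, 172 and 216 FPKM in CON1 to CON5, 218, 225, 201, 216 and 202 in HG1 to HG5, and 286, 106, 168, 160.1 and 199.9 in HP1 to HP5. Again HP1 was above the HG range and HP2 to HP5 were below the lowest HG value.

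Log2 fold changes of HP against HG were -0.25 ± 0.17 for NDUFA3 (limma 95% interval -0.62 to 0.11), 0.22 ± 0.16 for NDUFS1 (-0.11 to 0.55), -0.26 ± 0.21 for NDUFB7 (-0.71 to 0.20) and -0.28 ± 0.24 for NDUFA13 (-0.80 to 0.24). Without HP1, 2 members were lower in HP at an unadjusted p under 0.05 (4.44%), beside 2.29% of all genes lower, and 0 were higher, beside 1.40%. These were NDUFA3 and NDUFB7, with fold changes of -0.40 and -0.43 with unadjusted limma p of 0.0137 and 0.0379, and adjusted p of 0.984 for both. With array quality weights, 1 member was lower in HP at that level (NDUFA3), beside 2.46% of all genes, and 1 higher (NDUFS1), beside 2.61%.

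The rest of the pathway was read from lists. Of 38 genes of complexes II to V, 20 were matched and 19 tested. Of the 20, 4 belong to complex II, 1 to complex III, 1 to complex IV and 14 to complex V, so complexes III and IV are each read from 1 gene. Of the 19, 9 in HG and 13 in HP were lower at an unadjusted p under 0.05, beside 5.50% and 5.24% of all genes. None of the 19 was higher at that level, and 0 were called. The median was -0.31 and -0.36, beside -0.31 and -0.40 for the NDUF subunits. Of the 19 genes, 3 and 4 were lower without CON1 and CON3, with medians of -0.14 and -0.24. Without CON2, 9 of 19 were called lower in each comparison. The summed level of the NDUF genes was 69.6% to 80.6% of the summed level of these genes over the 15 libraries. In complex II, which feeds electrons from succinate, SDHD had means of 148 ± 21.1, 109 ± 11.5 and 106 ± 6.93 FPKM in CON, HG and HP, with log2 fold changes of -0.44 ± 0.12 (limma adjusted p = 0.0779) and -0.47 ± 0.12 (limma adjusted p = 0.0991). Without CON1 and CON3 its fold changes were -0.54 and -0.58, further from 0. In complex V, ATP synthase, ATP5PO had 578 ± 168, 378 ± 31.6 and 368 ± 49.4 FPKM.

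Assembly factors of complex I without an NDUF name had a median of -0.08 and -0.08 over 12 genes tested, with 1 lower at an unadjusted p under 0.05 in each comparison. The medians were -0.12 and -0.05 without CON1 and CON3, with 2 lower in each. The gene lower with all libraries was TMEM126B, a membrane-arm factor, at 10.9 ± 2.43 FPKM in CON, 7.35 ± 1.01 in HG and 7.09 ± 0.919 in HP, with log2 fold changes of -0.50 ± 0.15 (limma adjusted p = 0.0809) and -0.55 ± 0.15 (limma adjusted p = 0.0991). Of 13 iron-sulfur cluster assembly genes tested, 0 were lower or higher at an unadjusted p under 0.05 in either comparison, with medians of -0.06 and -0.04, and again 0 without CON1 and CON3, with medians of -0.02 and -0.04. Of 14 mitochondrial genes outside the respiratory chain, 3 were lower and 3 higher in HG and 4 lower and 1 higher in HP at that level, with medians of -0.09 and -0.17. With CON1 and CON3 left out, 1 was lower and 1 higher in HG and 0 were either in HP, with medians of -0.01 and -0.09. HSPD1, the mitochondrial chaperonin, had 159.7 ± 17.6, 117 ± 12.5 and 131 ± 13.1 FPKM, while OGDH, an enzyme of the citric acid cycle, had 42.9 ± 10.1, 61.6 ± 6.63 and 56.0 ± 8.54 FPKM.

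Regulators of mitochondrial biogenesis had positive medians, 0.26 in HG and 0.22 in HP over 11 genes tested, close to the 0.17 and 0.18 of all genes, and 0.09 and 0.00 without CON1 and CON3. At an unadjusted p under 0.05, 3 were higher and 1 lower in HG, and 2 higher and 1 lower in HP, and without CON1 and CON3 0 were higher and 1 lower in each. PPRC1, a coactivator related to PGC-1, had 4.05 ± 1.13, 5.78 ± 0.61 and 5.49 ± 0.542 FPKM, and TFB2M, a mitochondrial transcription factor, had 12.4 ± 0.836, 10.1 ± 0.474 and 9.98 ± 1.06 FPKM. None of these genes was called with all libraries.

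Markers of other cells in the tissue were set beside these values. The summed FPKM of 6 fibroblast markers was 663 to 1141 in CON, 1076 to 1819 in HG and 923 to 1619 in HP, with 3 of 6 genes higher at an unadjusted p under 0.05 in each comparison with CON, beside 21.8% and 22.6% of all genes. The 3 CON sums without CON1 and CON3 were 988, 1141 and 1092 FPKM, 1 of 6 was higher in each comparison, beside 7.79% and 6.36%, and the median log2 fold change went from 0.53 and 0.53 to 0.12 and 0.13. The summed FPKM of 4 endothelial markers was 41.2 to 66.1, 58.9 to 88.0 and 55.7 to 107, that of 5 immune markers 20.7 to 39.8, 18.9 to 43.3 and 20.5 to 46.4, and that of 6 smooth muscle markers 159 to 1565, 154 to 5122 and 123 to 2966. Every marker of these 4 types that was matched was above 0 in all 15 libraries. At an unadjusted p under 0.05, 2 of 4 endothelial markers in HG and 1 in HP were higher, and 1 of 5 immune markers in each. Of the 8 epithelial markers, 3 in HG and 4 in HP were higher and 0 lower. The same shares of all genes apply. Without CON1 and CON3, 1 epithelial marker was higher in each comparison, 1 and 0 endothelial markers, and 0 immune markers. No smooth muscle marker reached that level. Of 4 skeletal muscle markers, MYH2 was listed at 0 in 12 libraries and ACTA1 in 6. For 12 of 45 members, the highest HG value was in HG2 or HG3, the HG libraries with the most smooth muscle RNA. For the others it was in HG1, HG4 or HG5, and the share of all genes was not set beside this count. The part of these cell types in the complex I differences was not tested.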

How the data were processed

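Total RNA of ruminal epithelium was extracted with Trizol and sequenced on Illumina libraries, per the labels' protocols. Each library came as 1 deposited table whose values are FPKM, per the file headers. Per the submitters' processing notes, the tools were HISAT2 and StringTie 1.3.4d, without a stated role. The genome build, annotation and strand setting were not given in the sources used here. Since FPKM carries no depth and could not be turned back into reads, neither a count test nor a counting interval was made.

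A gene was kept if 5 or more of the 15 libraries reached 1 FPKM (13084 of 19304) and fitted with limma 3.58.1 in R 4.3.3 (statmod 1.5.0) on log2(FPKM + 1), with 3 group means in 1 model and empirical Bayes with a trend, robust. The pseudocount of 1 understates fold changes of low genes. P-values were adjusted by Benjamini-Hochberg over all genes tested within each comparison, with a threshold of 0.05. The steps were tested on simulated data. Members, gene lists and alternatives were chosen with earlier results of these data known. Values in every library are given for the 8 members with the smallest p in each comparison with CON, the 4 in HP against HG, the 7 core subunits, and the 2 highest and 2 lowest members. One member is in the counts and medians, but its own values are not reported here. Other genes came from the lists, up to 4 a list by smallest p. Alternatives were median-ratio scaling, quantile normalization, another pseudocount, other filters, array quality weights, only the libraries compared, the replicate number as a block, and leaving out libraries. A correction for transcript length was not run, since no transcript lengths were at hand. Of the 45 members, 8 overlap another gene in RefSeq (ARS-UI_Ramb_v3.0), a table consulted just for gene names and neighbours.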

Additional observations from a re-analysis of the deposited data

Results flagged for a closer look

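In each of the 3 groups, the highest and lowest library of every member was compared with the other 4 by Dixon's gap ratio. Of 135 groups of 5 libraries, 7 had a library standing apart, about the share of 1 in 20 that chance alone gives. Members share the same libraries, so these groups are not independent. In HP, library HP1 was the highest for NDUFA8 (223 FPKM, next 141), NDUFB10 (131 FPKM, next 100.5), NDUFB11 (160.1 FPKM, next 114) and NDUFB4 (113 FPKM, next 76.8). In HG, NDUFA5 was lowest in HG5 (9.61 FPKM, next 13.5), NDUFA8 in HG4 (125 FPKM, next 162) and NDUFAF6 in HG2 (4.33 FPKM, next 5.47).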

How the results depend on the processing

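Depth is unknown, and each group has 5 libraries. The SD of the NDUF sum was 1366 FPKM in CON, 247 in HG and 788 in HP. The number of members called in HG against CON was 7 with array quality weights, all lower, beside 1.62% of all genes called lower. The number at an unadjusted p under 0.05 was 10 in HG against CON without CON1 and CON3, all lower, beside 3.97% of all genes. Under median-ratio scaling it was 35 in HP against CON, all lower, beside 13.7%. Without CON1 and CON3 it was 9 in HP against CON, 7 lower beside 2.90% of all genes and 2 higher beside 6.36%. In HP against HG it was 2 with array quality weights, 1 lower beside 2.46% of all genes and 1 higher beside 2.61%. Leaving out 1 library at a time, calls ranged from 0 to 14 in HG against CON and from 0 to 16 in HP against CON, highest without CON2, and stayed at 0 in HP against HG. Members at an unadjusted p under 0.05, lower and higher counted together, ranged from 11 to 24, 15 to 30 and 0 to 2. The lowest pair was without CON3 and the last without HP1. The 24 in HG against CON, all lower, were without CON2, where 890 of 13084 genes were lower and 3691 higher. For the other fits against CON, the shares of all genes were not set beside these ranges, so the ranges are not read as a result about the members. The median log2 fold change of subunits ranged from -0.39 to -0.22, -0.54 to -0.29 and -0.11 to 0.04, and that of NDUFAF genes from -0.41 to -0.25, -0.32 to -0.17 and -0.05 to 0.11.

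Of 45 members, 30 kept their sign in both comparisons with CON under every alternative run and 15 did not. Without CON1 and CON3, the log2 fold change in HG turned to 0.030 for NDUFA10, 0.13 for NDUFA13, 0.025 for NDUFA2, 0.17 for NDUFAF3, 0.048 for NDUFB10, 0.072 for NDUFB7, 0.17 for NDUFB8, 0.17 for NDUFS3, 0.064 for NDUFS8, 0.12 for NDUFV1 and 0.077 for NDUFV3. In HP it turned to 0.19 for NDUFAF3, 0.016 for NDUFB8, -0.11 for NDUFS1, 0.16 for NDUFS3, 0.15 for NDUFS6 and 0.11 for NDUFV3. Median-ratio scaling gave -0.16 for NDUFA12 in HG and -0.14 for NDUFS1 in HP. Quantile normalization gave -0.015 for NDUFA4L2, 0.16 for NDUFB8, 0.013 for NDUFS8 and 0.21 for NDUFV1 in HG, and 0.037 for NDUFB8, 0.089 for NDUFS6 and 0.070 for NDUFV1 in HP. Array quality weights gave 0.082 for NDUFAF3, 0.014 for NDUFB8 and 0.047 for NDUFV1 in HG, and 0.14 for NDUFAF3, 0.081 for NDUFS6, 0.0050 for NDUFV3 and -0.00028919 for NDUFS1 in HP. With 1 library left out, values in HG ranged from -0.12 to 0.29 for NDUFA12, -0.20 to 0.080 for NDUFAF3, -0.16 to 0.067 for NDUFB8, -0.21 to 0.056 for NDUFS3, -0.080 to 0.063 for NDUFV1 and -0.11 to 0.057 for NDUFV3. In HP they ranged from -0.17 to 0.11 for NDUFAF3, -0.21 to 0.051 for NDUFS3, -0.22 to 0.11 for NDUFS6 and -0.092 to 0.10 for NDUFV3. The cause of these turns was not tested.

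Same-numbered libraries correlated in their deviations from the group means at -0.20 to 0.29, with the highest value for CON1 with HP1. Whether they share more than a number was not tested. With the replicate number as a block, 0 members were called in each comparison. A correction for transcript length was not run.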

Other observations

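A pair of genes of the same pathway are listed under other names and are outside the name rule. NDUFAB1, the mitochondrial acyl carrier protein and also a subunit of complex I, is listed by gene number. It was at 93.2, 53.5, 95.7, 51.2 and 67.0 FPKM in CON1 to CON5, 45.4, 39.9, 41.7, 44.5 and 71.4 in HG1 to HG5, and 78.2, 41.2, 52.7, 36.4 and 51.4 in HP1 to HP5. NDUFAF8, an assembly factor, is listed under an older name. It was at 73.8, 56.7, 88.5, 45.1 and 89.2 FPKM in CON1 to CON5, 60.5, 54.7, 50.1, 54.5 and 63.5 in HG1 to HG5, and 86.7, 25.4, 42.3, 50.7 and 52.0 in HP1 to HP5. The groups overlapped for both genes. HP1 was the highest HP library for both.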
